A study of Mus musculus with 10 samples.

Results

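The genes described here encode the core of the microRNA machinery in mouse neural stem cell (NSC) cultures: the Argonautes Ago1, Ago2, Ago3 and Ago4, the GW182 proteins Tnrc6a, Tnrc6b and Tnrc6c, and Dicer1. They were chosen by name, and all 8 are among the 15899 genes of the RNA immunoprecipitation sequencing (RIP-seq) matrix. Each library holds the RNA recovered by an anti-FLAG antibody, so the measured quantity is how much mRNA of each gene came down with FLAG-tagged MEX3A, an RNA-binding protein with KH domains, and how much came down without any tag. Neurospheres were grown from the subependymal zone of 10-week-old mice in EGF and FGF. FLAG cultures came from homozygous Mex3aFLAG/FLAG mice, whose endogenous Mex3a carries a 3X-FLAG sequence at its C-terminal end, and WT cultures from the same background had no tag and gave the nonspecific background. In the crosslinked IP, cells were fixed with formaldehyde before lysis, with 2 FLAG and 2 WT libraries. In the native IP they were not fixed, with 3 FLAG and 3 WT libraries. All 4 groups went through the same antibody. The methods call the replicates biological, but the labels tie no library to an animal, so p-values measure the spread between these cultures. RNA of the input lysates was not analysed here, hence a difference in pull-down and a difference in the amount of the mRNA in the culture cannot be told apart. In such bulk cultures, fewer cells of a type and less RNA per cell cannot be told apart either.

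In the microRNA pathway, Dicer cuts hairpin precursors into short duplexes, and an Argonaute protein keeps 1 strand of the duplex and is guided by it to partly complementary sites, mostly in 3' UTRs. Of the mouse Argonautes, AGO2 is the best known for cleaving a well-matched target. GW182 proteins bind the Argonaute and recruit the poly(A)-binding protein and the deadenylases, which leads to repression and decay of the target. Argonautes and GW182 proteins collect with decay enzymes in P-bodies, cytoplasmic granules in which MEX-3 family proteins have also been found. The question for these genes is whether their own mRNAs were pulled down with MEX3A above the WT background.

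The MEX-3 recognition element is a bipartite RNA element, made of 2 short motifs separated by a spacer of at most 8 bases. It is the consensus described for MEX-3 of the nematode Caenorhabditis elegans. The paper states that the way mammalian MEX3 proteins recognise their targets is still unknown. Whether mouse MEX3A binds this element was not tested here. Letters that match the element were found in the longest annotated 3' UTR of all 8 mRNAs (GENCODE M21, GRCm38). The site nearest to the 3' end of each mRNA is printed with 6 flanking bases, 5' to 3' on the mRNA strand, in DNA letters, with both motifs in capitals, so that the mRNAs can be compared at the same kind of place.
Ago1, chr4:126435905-126435928, minus strand, 899 nt from the 3' end: tggcccATAGaaggTCTAcaaggc
Ago2, chr15:73096449-73096472, minus strand, 611 nt from the 3' end: tgccatTGAGatctTTTAtattca
Ago3, chr4:126333049-126333070, minus strand, 323 nt from the 3' end: tttactATAGtaTTTAgactgc
Ago4, chr4:126490555-126490575, minus strand, 1020 nt from the 3' end: gaatgcATAGtTTTAacttaa
Tnrc6a, chr7:123195183-123195205, plus strand, 97 nt from the 3' end: gggcttTGAGtagTATAtatctg
Tnrc6b, chr15:80940941-80940962, plus strand, 129 nt from the 3' end: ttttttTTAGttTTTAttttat
Tnrc6c, chr11:117762884-117762906, plus strand, 539 nt from the 3' end: ttttaaTTAGcttTTTAatggtt
Dicer1, chr12:104688232-104688255, minus strand, 496 nt from the 3' end: tgtacgTGAGacatTTTAaagata

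Overlapping matches were counted separately, also where they share a second motif, as do the printed Tnrc6a site and a shorter match within it. Ago3 had the most matches, 54 in a 3' UTR of 12742 nt, followed by Tnrc6b with 30 in 11609 nt and Ago2 with 19 in 11064 nt. Ago1 had 10 in 4491 nt, Dicer1 10 in 3851 nt, Tnrc6a 8 in 2345 nt, Ago4 7 in 3682 nt and Tnrc6c 7 in 2588 nt. These are long 3' UTRs: their median was 4171 nt, against 1261 nt over the 12108 coding genes of the matrix with an annotated 3' UTR. The 3' UTRs of Ago3, Tnrc6b and Ago2 were longer than those of 99.9%, 99.8% and 99.8% of these genes. Per length, the matches were no denser than elsewhere, with 2.77 per kb in the 8 mRNAs and 2.80 per kb over all coding genes, and the single values ran from 1.72 per kb in Ago2 to 4.24 per kb in Ago3. A match was present in 77.2% of all coding genes and in 99.4% of the 3180 genes whose 3' UTR is at least as long as that of Tnrc6a, the shortest of the 8. With the other published form of the second motif, all 8 mRNAs again had a match, at 2.37 per kb against 2.61 per kb. A match of letters is a description of the sequence and does not show that MEX3A binds there.

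**Figure D1:**
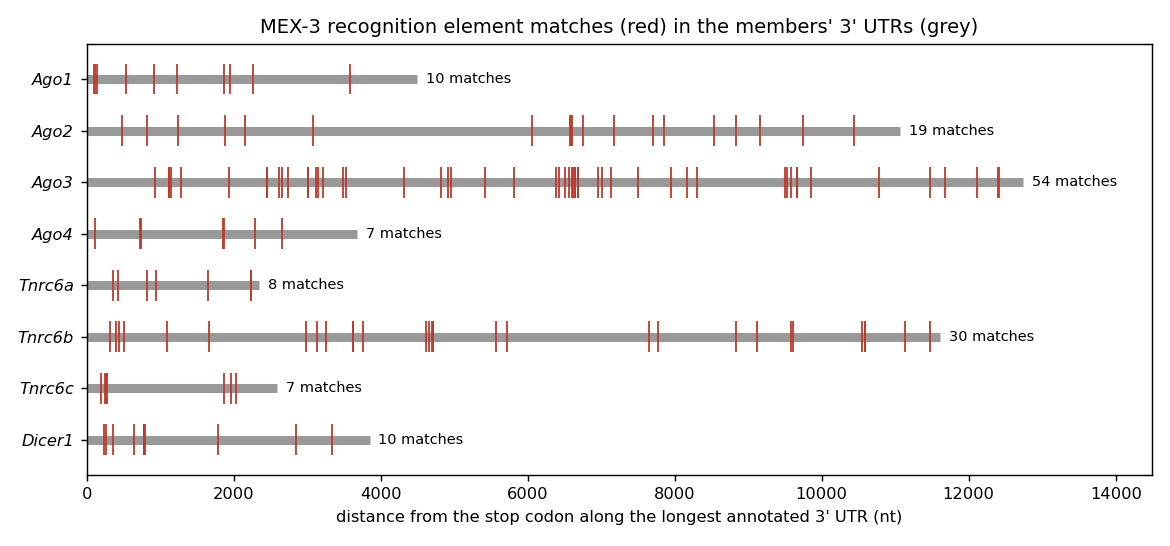
Each grey bar is the longest annotated 3' UTR of one gene, drawn from the stop codon (0) in nt, and each red tick is the start of a match to the MEX-3 recognition element. The 54 matches of Ago3 and the 30 of Tnrc6b spread over 3' UTRs of 12742 and 11609 nt, while the other genes hold between 7 and 19.

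Ago1 (ENSMUSG00000041530, chr4:126435012-126468583), Ago3 (ENSMUSG00000028842, chr4:126331704-126429556) and Ago4 (ENSMUSG00000042500, chr4:126489541-126533472) lie next to each other on the minus strand. Ago2 (ENSMUSG00000036698, minus strand, from chr15:73095844), Tnrc6a (ENSMUSG00000052707, plus strand, chr7:123123885-123195296), Tnrc6b (ENSMUSG00000047888, plus strand, chr15:80711313-80941085), Tnrc6c (ENSMUSG00000025571, plus strand, chr11:117654289-117763439) and Dicer1 (ENSMUSG00000041415, minus strand, chr12:104687742-104751952) lie elsewhere. Reads of 75 nt tell the paralogs apart almost everywhere: of all stretches of that length in their longest transcripts, 96 were identical between Ago1 and Ago3, which is 1.34% of those of Ago1, and no other pair of the 8 genes shared any. The 3' end of Ago2 overlaps Chrac1 on the opposite strand, and Tnrc6a overlaps the gene model Gm45846. Whether the counting used the strand is not given in the sources used here. Chrac1 itself had deposited log2 values of 2.19 to 2.66 in the 10 libraries.

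The matrix holds log2 values that are distributed almost alike in the 10 libraries, so depth per library is unknown and a value is a level relative to the rest of its own library. Mex3a, the tagged gene, stood at 3.92 and 4.16 in the FLAG crosslinked libraries against 2.75 and 3.03 in WT, and at 5.95, 4.03 and 6.10 in FLAG native replicates 1, 2 and 3 against 3.33, 3.52 and 2.89 in WT, above every WT library in both protocols. FLAG native replicates 1 and 3 stood apart from all others: 51.3% and 46.2% of all genes differed from the native WT mean by more than 0.58, against 15.2% in FLAG native replicate 2 and 11.8% and 11.6% in the FLAG crosslinked libraries, and 329 and 178 genes sat at the lowest value of the library, against at most 3 elsewhere. Of 8 NSC and progenitor markers in the matrix, 7 had a median above that of all genes (Egfr 10.43, Slc1a3 8.39, Nes 7.48). Gfap, Dcx, Tubb3, Sox10, Mbp and Aif1 were not analysed here. The summed linear level of Rbfox3 and Snap25, the 2 neuronal markers of 4 on the list that are in the matrix, was lower in FLAG than in WT, at 8.91 to 16.6 against 24.7 to 25.8 crosslinked and 9.33 to 13.2 against 24.2 to 31.1 native. The NSC marker sums overlapped in both protocols, at 2067 to 2155 against 2016 to 2317 crosslinked and 2291 to 2917 against 2600 to 2777 native. Of the microglial genes in the matrix, Cx3cr1 and P2ry12 had medians of 4.15 and 3.78 and Csf1r of 0.26, and the oligodendrocyte, endothelial and ependymal markers in the matrix had medians of at most 1.59. The part of these differences in the results was not tested.

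None of the 8 mRNAs passed the test in any comparison. The test was limma's moderated test on the log2 values with Benjamini-Hochberg adjustment over all 15899 genes, and a gene was called where the adjusted p-value fell below 0.05 and the change exceeded 1.5-fold in either direction, which is 0.58 on the log2 scale. FLAG against WT called 0.0% of all genes in the crosslinked IP, 0.107% in the native IP (17 genes, all lower in FLAG) and 0.497% over all libraries (79 genes, of which 42 were higher). The last count depended on single libraries, with 13 to 702 genes when 1 library was left out (702 without FLAG native replicate 2, 401 without WT crosslinked replicate 2) and 2069 with array weights, which give libraries that lie far from the rest of their group less weight. The native count ran from 0 to 3160 when 1 native library was left out. Without FLAG native replicate 2 it held 1450 genes higher and 1710 lower in FLAG, and with array weights 1656 and 1921. With the p-value left unadjusted and the fold threshold kept, the shares were 3.77%, 14.8% and 12.5%, and of the 8 mRNAs only Ago1 in the native IP was among them. The median log2 fold change of the 8 was 0.03 crosslinked, 0.04 native and 0.05 over all libraries, against −0.02, −0.04 and −0.03 over all genes.

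Ago1, 1 of the 4 Argonautes that carry the microRNA, had the widest range of the 8. In the crosslinked IP it stood at 4.80 and 4.81 in FLAG and at 4.68 and 4.78 in WT. In the native IP it stood at 5.92, 4.89 and 5.86 in FLAG replicates 1, 2 and 3, and at 4.92, 4.92 and 4.92 in WT. Both crosslinked FLAG libraries lay just above both WT libraries, while in the native IP 2 FLAG libraries lay about 1 log2 unit above WT and the other lay just below all of WT. The fold change was 0.08 crosslinked (95% confidence interval −0.16 to 0.31, limma adjusted p = 0.864) and 0.64 native (SE 0.28, interval 0.01 to 1.27, unadjusted p = 0.0476, adjusted p = 0.294). Over all libraries it was 0.41 (interval −0.03 to 0.85, adjusted p = 0.256), and 0.13 with array weights (adjusted p = 0.193). With the same weights the native fold change was 0.83 and passed the test (adjusted p = 0.0171), as did 22.5% of all genes. The group mean of 5.56 ± 0.58 (SD, n = 3) in native FLAG therefore described no single library, against 4.92 ± 0.002 (SD, n = 3) in native WT.

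FLAG native replicates 1 and 3, in which Ago1 was high, were the same libraries that stood apart over all genes and in which Mex3a was highest. Ago1 lay 1.01 and 0.94 above the native WT mean there, a higher difference than for 86.3% and 87.0% of all genes, and at −0.03 from it in replicate 2. In these 2 libraries 26.1% and 23.1% of all genes lay more than 0.58 above the WT mean. Without FLAG native replicate 2, the native fold change of Ago1 was 0.97 and passed the test (adjusted p = 0.00741), but so did 19.9% of all genes, 3160 in number. Without replicate 1 or replicate 3 it was 0.46 and 0.49 (adjusted p = 0.592 and 0.604). Which of these libraries better represents the native IP was not tested.

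Ago2, which encodes the Argonaute with slicer activity, stood at 6.32 and 6.39 in crosslinked FLAG and at 6.38 and 6.54 in crosslinked WT. In the native IP the FLAG libraries gave 6.87, 6.50 and 6.73 and the WT libraries 6.53, 6.56 and 6.46. The groups overlapped in both protocols, and FLAG native replicates 1 and 3 were again the highest. The fold changes were −0.10 crosslinked (interval −0.37 to 0.17, limma adjusted p = 0.831), 0.18 native (−0.19 to 0.55, adjusted p = 0.537) and 0.07 over all libraries (−0.16 to 0.30, adjusted p = 0.699).

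Ago3 and Ago4 encode Argonautes that share microRNAs with the other 2. Ago3, the mRNA with the most matches to the MEX-3 element, stood at 5.59 and 5.65 in crosslinked FLAG against 5.51 and 5.51 in WT, and at 5.11, 5.57 and 5.53 in native FLAG against 5.63, 5.44 and 5.63 in WT. The crosslinked FLAG libraries lay above WT by about 0.1, and in the native IP FLAG replicate 1 was the lowest library of all 10. Its fold changes were 0.11 crosslinked (interval −0.11 to 0.33, limma adjusted p = 0.793) and −0.17 native (−0.60 to 0.27, adjusted p = 0.632), and the native value was −0.02 without FLAG replicate 1.

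Ago4, the lowest of the 8 mRNAs per length, stood at 3.13 and 3.08 in crosslinked FLAG against 2.99 and 3.18 in WT. In the native IP it stood at 2.48, 3.20 and 2.61 in FLAG against 3.44, 2.48 and 3.39 in WT. WT native replicate 2 was as low as FLAG native replicate 1, so the groups overlapped and the spread was wide. The fold changes were 0.02 crosslinked (interval −0.29 to 0.33, limma adjusted p = 0.982) and −0.35 native (−1.11 to 0.42, adjusted p = 0.571), and the native interval is too wide to tell a 1.5-fold difference from none.

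**Figure D2:**
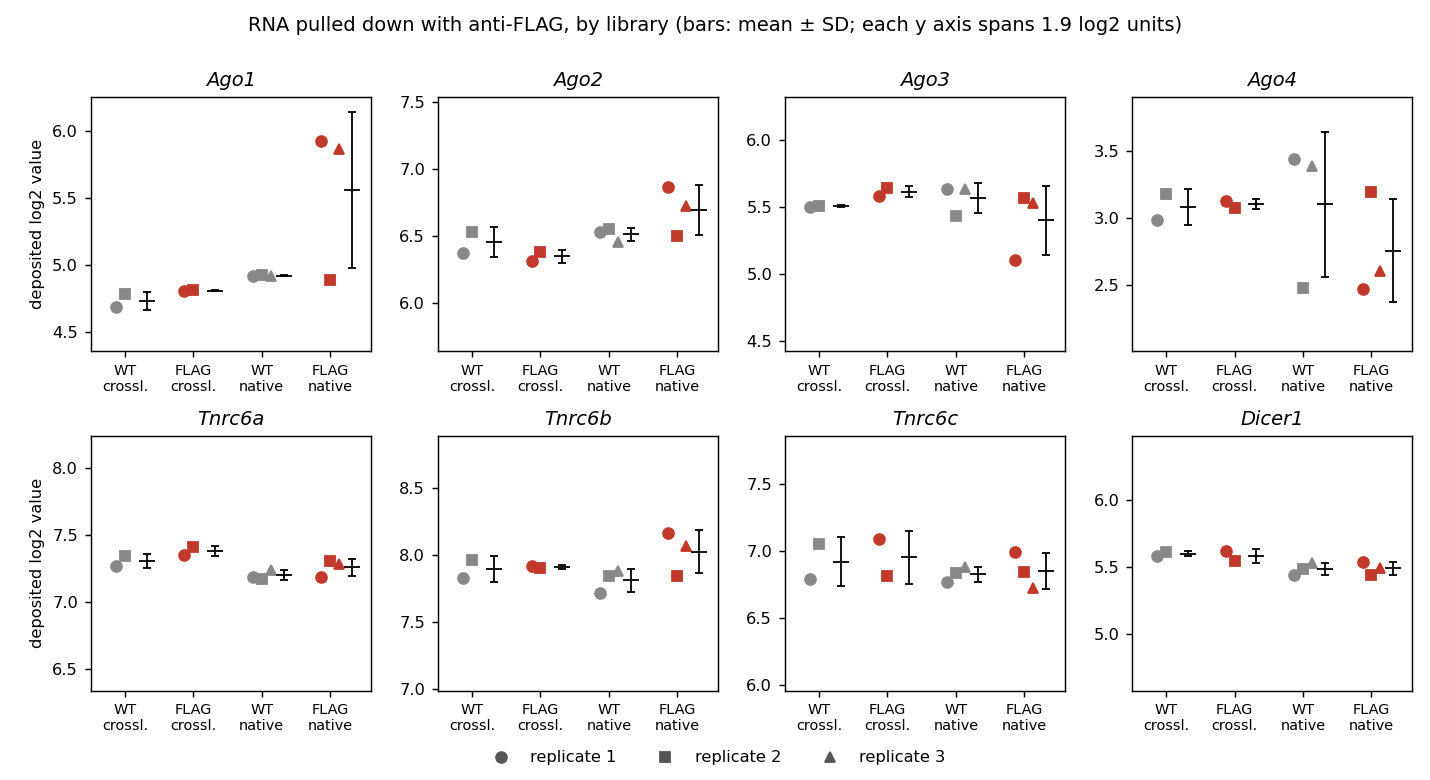
Deposited log2 values (y axis, 1.9 log2 units in every panel) of the 8 mRNAs in the 10 libraries by group, WT in grey and FLAG in red, with circles, squares and triangles for replicates 1, 2 and 3 and bars for the group mean ± SD (n = 2 crosslinked, n = 3 native). Ago1 at 5.92 and 5.86 in FLAG native replicates 1 and 3 is the widest departure from WT, and the panels of Tnrc6a and Dicer1 are nearly flat.

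Relative to WT, the Argonautes did not move together in FLAG native replicates 1 and 3. Where Ago1 lay above the native WT mean, Ago3 and Ago4 lay below it, by 0.46 and 0.63 in replicate 1 and by 0.03 and 0.50 in replicate 3. Ago1 and Ago3 are neighbours on chromosome 4, and their values over the 10 libraries had a Pearson correlation of −0.65. The correlation was 0.90 between Ago1 and Ago2 and 0.74 between Ago3 and Ago4. These are descriptions over 10 libraries that share 1 normalization, and single libraries such as FLAG native replicate 1 weigh heavily in them.

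The GW182 genes, whose proteins link Argonaute to the deadenylases, varied little. Tnrc6a stood at 7.36 and 7.41 in crosslinked FLAG against 7.27 and 7.35 in WT, and at 7.19, 7.31 and 7.29 in native FLAG against 7.19, 7.17 and 7.25 in WT. The crosslinked FLAG libraries lay above WT, by 0.07 in the mean, and the native ones overlapped with it. The fold changes were 0.07 crosslinked (interval −0.16 to 0.31, limma adjusted p = 0.870), 0.06 native (−0.27 to 0.38, adjusted p = 0.831) and 0.06 over all libraries (−0.11 to 0.23, adjusted p = 0.614).

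Tnrc6b had the longest transcript of the 8, 17332 nt. It stood at 7.92 and 7.90 in crosslinked FLAG against 7.83 and 7.96 in WT, and at 8.16, 7.85 and 8.07 in native FLAG against 7.72, 7.84 and 7.88 in WT. As for Ago1 and Ago2, FLAG native replicates 1 and 3 were the highest libraries, 0.35 and 0.26 above the WT mean, while replicate 2 was within the WT range. The fold changes were 0.02 crosslinked (interval −0.25 to 0.28, limma adjusted p = 0.982), 0.21 native (−0.14 to 0.56, adjusted p = 0.458) and 0.13 over all libraries (−0.08 to 0.34, adjusted p = 0.397).

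Tnrc6c stood at 7.09 and 6.81 in crosslinked FLAG against 6.79 and 7.05 in WT, and at 6.995, 6.84 and 6.72 in native FLAG against 6.77, 6.84 and 6.88 in WT. The groups overlapped in both protocols, and the replicates of a group differed by more than the group means did. The fold changes were 0.03 crosslinked (interval −0.40 to 0.46, limma adjusted p = 0.979) and 0.03 native (−0.32 to 0.37, adjusted p = 0.937).

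Dicer1, the gene of the enzyme that cuts microRNA precursors, was the flattest of the 8. It stood at 5.62 and 5.54 in crosslinked FLAG against 5.58 and 5.61 in WT, and at 5.53, 5.44 and 5.49 in native FLAG against 5.43, 5.49 and 5.53 in WT. The fold changes were −0.02 crosslinked (interval −0.24 to 0.21, limma adjusted p = 0.980), 0.005 native (−0.35 to 0.36, adjusted p = 0.989) and −0.004 over all libraries (−0.19 to 0.18, adjusted p = 0.981). The SD of Dicer1 over all 10 libraries was 0.06, and 0.497% of the 3020 genes with a mean value of at least 5 had a smaller one. For Tnrc6a, at 0.08, the share was 1.46%, for Tnrc6c and Tnrc6b 9.50% and 10.3%, for Ago3 and Ago2 20.03% and 22.2%, and for Ago1, at 0.45, it was 82.8%. Ago4 lies below that level, with an SD of 0.36.

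The intervals bound how large a difference these libraries leave room for, at the pull-down each protocol gave. Over all genes the median absolute log2 fold change was 0.14 crosslinked and 0.38 native. The methods describe MEX3A as seemingly better recovered under native conditions. The part of this in the width of the intervals was not tested. In the crosslinked IP the 95% intervals of all 8 mRNAs lay between −0.40 and 0.46, inside the threshold of 0.58. In the native IP those of 5 mRNAs (Ago2, Tnrc6a, Tnrc6b, Tnrc6c and Dicer1) lay inside it, whereas those of Ago1, Ago3 and Ago4 reached past it. Over all libraries only the intervals of Ago1 and Ago4 did, at 0.85 and −0.68. That fit takes the 10 libraries as independent, although same-numbered libraries of 1 genotype deviated together across protocols. Its intervals may therefore be too narrow, and no block within genotype was run for it. The FLAG libraries all exceeded the WT libraries for 3 of the 8 in the crosslinked IP (Ago1, Ago3 and Tnrc6a), beside 19.1% of all genes, and for none in the native IP, beside 8.62% of all genes. None of the 8 lay wholly below WT, beside 19.9% and 10.8% of all genes.

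**Figure D3:**
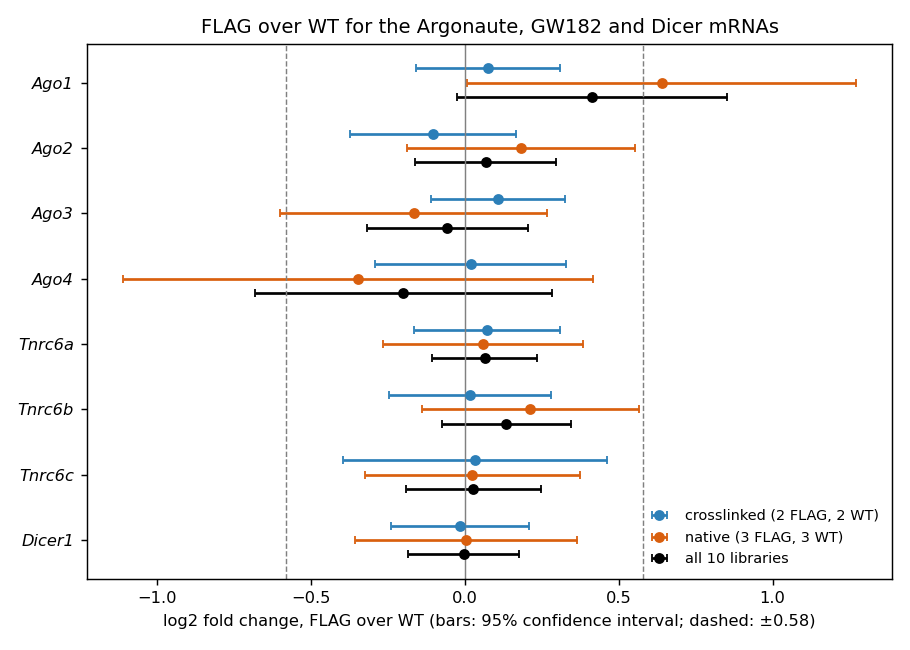
Points are log2 fold changes of FLAG over WT (x axis) for the 8 mRNAs in the crosslinked IP (blue), the native IP (orange) and all 10 libraries (black), bars are 95% confidence intervals and dashed lines mark ±0.58. All crosslinked intervals lie inside the dashed lines, and the native interval of Ago1, 0.01 to 1.27, is the one that does not include 0.

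The pull-down with and without crosslinking was then compared. The fold change of FLAG over WT differed between the protocols by 0.56 for Ago1 (native minus crosslinked, interval −0.30 to 1.43) and by −0.37 to 0.29 for the other 7, and no difference passed limma's test of the interaction (smallest adjusted p = 0.970). That test called 0.0% of all genes, and 0.415% passed without adjustment. With 1 library left out, the difference of Ago1 between protocols ran from 0.38 to 0.90. In WT, which measures the background of the antibody and beads, native minus crosslinked values lay between −0.11 for Dicer1 and 0.19 for Ago1, with adjusted p-values of 0.914 or more in limma, where 0.333% of all genes were called and 6.4% passed without adjustment. The 53 genes behind that share became 0 to 97 when 1 library was left out and 4 with a pseudocount of 1.

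In FLAG, the native value of Ago1 lay 0.75 above the crosslinked one (interval 0.14 to 1.36, unadjusted p = 0.0212, limma adjusted p = 0.244), and that of Ago2 0.35 above it (interval 0.02 to 0.67, unadjusted p = 0.0401, adjusted p = 0.306). The other 6 mRNAs had differences between −0.35 for Ago4 and 0.12 for Tnrc6b. None of the 8 was called, beside 0.44% of all genes, and at an unadjusted p-value with the fold threshold Ago1 was the one that passed, beside 12.1% of all genes. This comparison uses the same FLAG native libraries as the native fold change of Ago1. Without FLAG native replicate 2 the difference of Ago1 was 1.09 and passed the test (adjusted p = 0.0037), as did 16.7% of all genes, while leaving out any other FLAG library brought the 70 genes called to between 3 and 6.

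**Figure D4:**
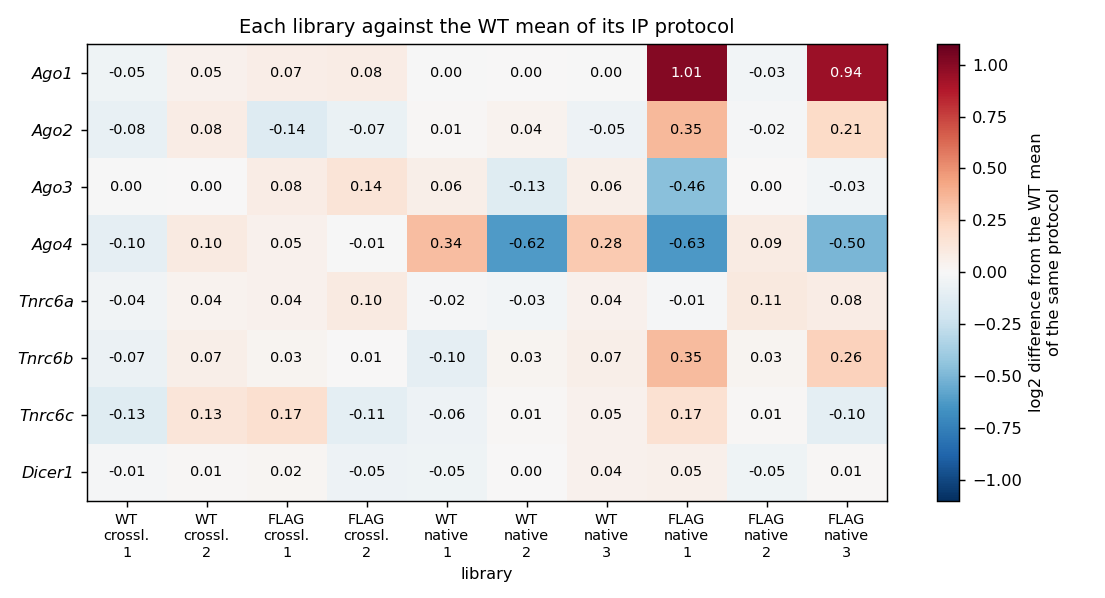
Each cell gives the deposited log2 value of one mRNA (row) in one library (column) minus the mean of the WT libraries of the same protocol, in red above and in blue below that mean. The strongest red cells are Ago1 in FLAG native replicates 1 and 3 (1.01 and 0.94), beside −0.03 in replicate 2, and the rows of Tnrc6a and Dicer1 stay within about 0.1.

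Levels were compared between genes only per length, as the deposited log2 value minus log2 of the longest annotated transcript in kb. By the median over the 10 libraries, the GW182 genes came first, with Tnrc6a at 4.25, Tnrc6b at 3.78 and Tnrc6c at 3.30. Ago2 followed at 2.73, Dicer1 at 2.23, Ago1 at 2.05, Ago3 at 1.59 and Ago4 at 0.40. The ranges over the 10 libraries did not overlap between neighbours in this order, except for Dicer1 (2.13 to 2.32) and Ago1 (1.83 to 3.07). Tnrc6a lay above 91.1% of the 12276 coding genes on this scale, Ago2 above 71.8%, Ago1 above 57.9% and Ago4 above 24.98%. With the merged length of all exons in place of the longest transcript, the GW182 genes and Ago2 remained first and Ago4 last, but Dicer1 came to 1.46, below Ago1 at 1.88 and Ago3 at 1.501.

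The genes whose values followed each mRNA most closely over the 10 libraries were taken by Pearson correlation. For Ago1 they were Pom121 (0.99), Ascl4 (0.99) and Uqcrc2 (0.98), and for Ago2 Gm20512 (0.97), Gm20458 (0.96) and Eif3d (0.95). For Ago3 they were Gm38380, Lancl1 and Tfb1m (all 0.96), and for Ago4 Gm42615 (0.99), Gm26574 (0.97) and Gm42478 (0.97). Tnrc6a was followed by Tyw5 (0.95), Pkd2 (0.92) and Ranbp9 (0.92), Tnrc6b by Nampt (0.958), Zdhhc7 (0.957) and Lhx2 (0.955), Tnrc6c by Tmem266 (0.94), B3gat2 (0.93) and Plppr1 (0.91), and Dicer1 by Gm15917 (0.96), Pld2 (0.93) and Cdk11b (0.93). None of the 8 was among the 3 closest genes of another. With 10 libraries and 15899 genes such values are a description only.

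The other genes of the pathway were taken from a list of 44, of which 42 are in the matrix (Lin28a and Lin28b were not analysed here). None of the 42 passed the test in any of the 6 comparisons. They comprise 13 genes of microRNA biogenesis and turnover, 5 chaperones that help to load Argonaute, and 24 silencing partners of GW182 and decay factors. Over all libraries their median log2 fold change was −0.08, with 19 of 42 above 0, against −0.03 over all genes.

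The chaperones had positive fold changes in all 5 cases over all libraries, with a median of 0.60 and values from 0.33 to 0.90. In the crosslinked IP alone 4 of the 5 were positive. The chaperones also differed between protocols in WT, without any tag. There, native minus crosslinked was positive in 4 of 5, with a median of 0.91. Hsp90ab1 and Hsp90aa1, the constitutive and inducible forms of the chaperone HSP90 that opens Argonaute for the duplex, had 0.90 (interval 0.20 to 1.61, limma adjusted p = 0.167) and 0.73 (0.16 to 1.30, adjusted p = 0.168). Pabpc1, the cytoplasmic poly(A)-binding protein that GW182 proteins contact, had 0.89 (0.28 to 1.51, adjusted p = 0.137). In these 3 genes both FLAG libraries lay above both WT libraries in the crosslinked IP, whereas the native libraries overlapped. In the crosslinked IP this held for 7 of the 42 pathway genes, and 9 lay wholly below WT, beside 19.1% and 19.9% of all genes. With array weights Pabpc1 was called (0.60, adjusted p = 0.00191), beside 13% of all genes, while Hsp90ab1 came to 0.47 and Hsp90aa1 to 0.17 and neither passed the fold threshold. Without FLAG native replicate 2, all 3 were called (Hsp90aa1 0.95, adjusted p = 0.0346, Hsp90ab1 1.16, adjusted p = 0.0394, and Pabpc1 1.11, adjusted p = 0.0335), beside 4.42% of all genes. As for Ago1, the native difference sat in 2 libraries: the chaperones had a median of 1.19 and 1.31 above the WT mean in FLAG native replicates 1 and 3, but of 0.02 in replicate 2.

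At the other end, Mov10, an RNA helicase that binds Argonaute, had −0.72 over all libraries (interval −1.23 to −0.21, limma adjusted p = 0.140). Wtip, a LIM-domain relative of the Argonaute partners AJUBA and LIMD1, had −0.58 (−1.001 to −0.16, adjusted p = 0.148), and Dcp1b, a cofactor of the decapping enzyme, −0.50 (−0.89 to −0.11, adjusted p = 0.170). These differences too were widest in FLAG native replicates 1 and 3: relative to the WT mean, replicates 1, 2 and 3 gave −1.35, −0.33 and −1.37 for Mov10, −1.24, −0.28 and −0.91 for Wtip, and −1.04, −0.19 and −0.86 for Dcp1b. For these 3, for Drosha (−0.22, adjusted p = 0.246), the nuclear RNase that cuts primary microRNA transcripts, and for Eif4enif1 (−0.33, adjusted p = 0.190), which binds the cap-binding protein eIF4E, the FLAG libraries all lay below the WT libraries in both protocols. That is 5 of 42, beside 4.47% of all genes, and none of the 42 lay wholly above WT in both, beside 4.84%. Of the 8 Argonaute, GW182 and Dicer mRNAs, none lay wholly on 1 side in both protocols.

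**Figure D5:**
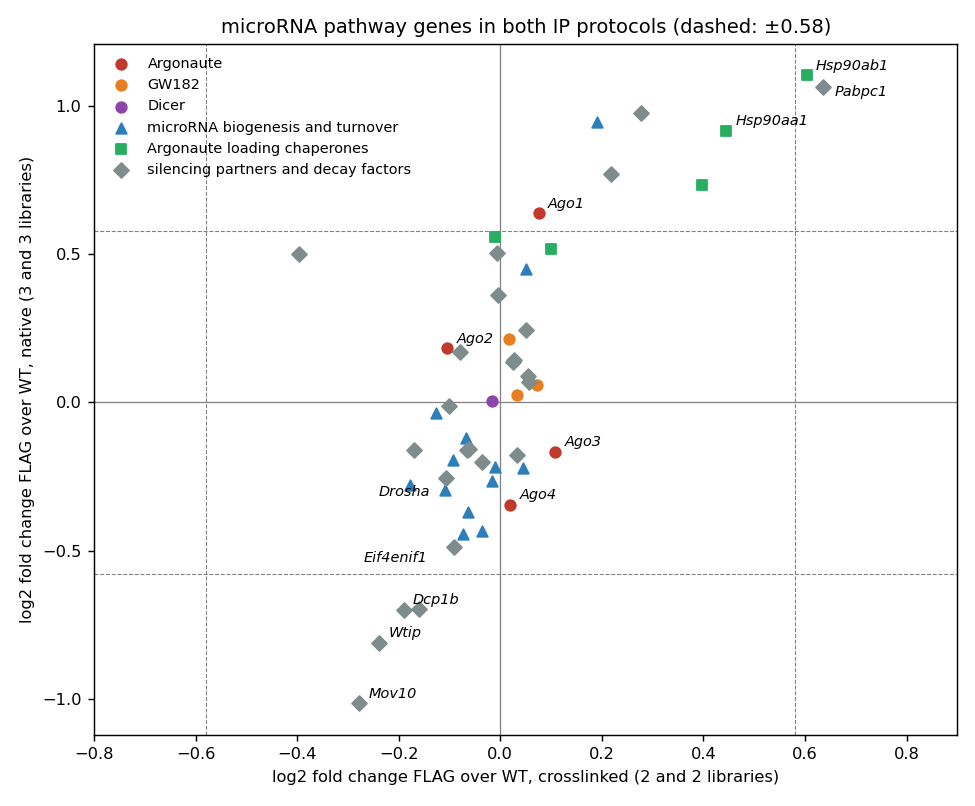
Each point is 1 of the 8 Argonaute, GW182 and Dicer genes or of the 42 other pathway genes, with its log2 fold change of FLAG over WT in the crosslinked IP (x axis) and in the native IP (y axis), coloured by group, and dashed lines mark ±0.58. Hsp90ab1 and Pabpc1 lie at the upper right and Mov10 at the lower left, the GW182 genes and Dicer1 lie near the centre, and no point passed the test.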

How the data were processed

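RNA pulled down with anti-FLAG was sequenced in 10 libraries, grouped by the labels. The authors trimmed the reads with Cutadapt and Trimmomatic, mapped them to GRCm38 with HISAT2, counted them per gene (GENCODE M16) with featureCounts and filtered and normalized the counts. The methods name DESeq2 for this, and the submitters' processing notes list limma. The deposited log2 values were used as they stand, with no pseudocount, and whole reads could not be recovered from them, so depth and counting error are unknown. No column was left unused. FLAG and WT were compared in limma 3.58.1 (R 4.3.3, lmFit, eBayes with trend, Benjamini-Hochberg) on all genes, once per protocol and once on the 10 libraries together with a term for the protocol. A fit of the 4 groups gave the interaction and the native against crosslinked contrasts.

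The steps were tested on simulated data. Annotation and 3' UTRs came from GENCODE M21 (GRCm38), in which 7 of the 8 genes have the same ends as in the matrix and Ago2 ends elsewhere. Motifs were searched as letters on the mRNA strand. Python 3.11.15, pandas 2.3.3 and matplotlib 3.10.9 were used. All 8 genes are named, with 3 correlated genes each. Of the other pathway genes, those with the 3 highest and 3 lowest fold changes over all libraries, or not overlapping with WT in the same direction in both protocols, are named. The genes and lists were chosen with earlier results of these data known. Alternatives were pseudocounts of 1 and 8 on the linear scale, a minimum mean of 10, cyclic loess and quantile normalization, array weights, the replicate number as a block, no trend, a fit of 4 groups, each library left out, the other motif form and merged exon length. After the values were known, 2 other replicate blocks were added, as was a correction that subtracts, per library, the median over 20 bins of genes ranked by how much of the gene body is exonic.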

Additional observations from a re-analysis of the deposited data

How the results depend on the processing

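None of the 8 genes and no other pathway gene was called in FLAG against WT under the pseudocounts, the minimum mean, cyclic loess, no trend or the fit of 4 groups. The minimum mean removed Ago4 and, among the named pathway genes, Wtip, so it did not test them. Quantile normalization left the values almost as they were, since the deposited libraries are already distributed alike, and tests nothing. Array weights called 1 of the 8 in the native IP (Ago1, 0.83, limma adjusted p = 0.0171) and 1 in native against crosslinked FLAG (Ago1, 0.92, adjusted p = 0.0200), and 13 and 11 other pathway genes there, beside 22.5% and 9.36% of all genes, plus 1 pathway gene over all libraries and 3 in native against crosslinked WT, beside 13% and 5.43%. Leaving out 1 library gave 0 to 1 of the 8 in the native IP and in native against crosslinked FLAG, with 0 to 16 and 0 to 12 pathway genes, and 0 to 5 pathway genes over all libraries, each highest count without FLAG native replicate 2, beside 19.9%, 16.7% and 4.42% of all genes. With the replicate number as a block, 0 of the 8 were called and Ago1 had adjusted p = 0.447 native and 0.305 over all libraries. Same-numbered FLAG and WT libraries deviated in opposite directions (r = −0.27 crosslinked, −0.43 to −0.15 native). Deviations from the mean of 2 or 3 libraries depend on each other, and the crossed crosslinked pairing gave 0.27. These values therefore cannot settle whether the numbers pair FLAG with WT. Same-numbered libraries of 1 genotype deviated together across protocols (r = 0.18 and 0.15 in FLAG, 0.30 and 0.39 in WT). With the replicate number as a block within genotype, native against crosslinked called 0.0314% of all genes in WT and in FLAG, instead of 0.333% and 0.44%, and none of the 8. The crossed pairing of the crosslinked libraries, added with the values known, called 0 genes of 15899, as did the plain block. Merged exon length reduced the distance between the highest and the lowest level per kb from 3.85 to 3.30. Among Ago1 and the named pathway genes, the values over all libraries that moved by more than 1.5 times were those of Ago1 (0.13), Hsp90aa1 (0.17), Hsp90ab1 (0.47), Mov10 (−0.39), Wtip (−0.26), Dcp1b (−0.24), Drosha (−0.14) and Eif4enif1 (−0.15) under array weights, those of Mov10, Wtip and Dcp1b under a pseudocount of 8 (−0.41, −0.28 and −0.33), and that of Drosha without the exonic share trend (−0.077).

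Fold changes turned direction where they were at most 0.20 in size (60 values over 23 of 96 results). Under cyclic loess these were Dicer1 over all libraries (0.039), Tnrc6a and Tnrc6c between protocols (0.12 and 0.12), and Tnrc6a, Tnrc6c, Dicer1 and Drosha in native against crosslinked FLAG (0.0050, 0.022, 0.010 and 0.11). Array weights turned Tnrc6c native (−0.0079) and Ago2, Ago3 and Ago4 over all libraries (−0.0013, 0.10 and 0.038). The replicate block turned Ago4 in native against crosslinked WT (−0.014) and Drosha in FLAG (0.044), and the block within genotype Tnrc6c between protocols (0.083), Ago4 in WT (−0.12) and Drosha in FLAG (0.11). Removing the exonic share trend turned Dicer1 native (−0.11), Tnrc6c, Dicer1 and Drosha between protocols (0.063, −0.064 and 0.0024), Dicer1 in native against crosslinked WT (0.0017), and Tnrc6c and Drosha in FLAG (0.011 and 0.16). With 1 library left out, the crosslinked values ranged from −0.076 to 0.12 for Ago4, −0.051 to 0.085 for Tnrc6b, −0.11 to 0.17 for Tnrc6c and −0.053 to 0.020 for Dicer1. Without changing sign, the crosslinked values ranged from 0.027 to 0.12 for Ago1 and −0.18 to −0.026 for Ago2, the native ones from 0.097 to 0.28 for Ago2, −0.25 to −0.017 for Ago3 and −0.66 to −0.18 for Ago4, and Ago2 over all libraries from 0.0055 to 0.12. The native values ranged from −0.046 to 0.090 for Tnrc6c and −0.019 to 0.030 for Dicer1, and those over all libraries from −0.090 to 0.040 for Ago3, −0.016 to 0.071 for Tnrc6c and −0.018 to 0.0096 for Dicer1. Between protocols the ranges were −0.050 to 0.024 for Tnrc6a, −0.15 to 0.13 for Tnrc6c and −0.015 to 0.058 for Dicer1. In native against crosslinked FLAG they were −0.24 to 0.041 for Tnrc6c and −0.079 to 0.11 for Drosha, and in WT −0.019 to 0.14 for Ago2, −0.15 to 0.33 for Ago4 and −0.22 to 0.036 for Tnrc6c. The cause was not tested.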
